A study of Mus musculus with 31 samples.

Results

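Ribosome footprints of mouse brain cortex deficient in both Fmr1 and Rps6kb1 (DKO) were set against those of wild-type cortex (WT). The 7 libraries compared, 3 of DKO and 4 of WT, were chosen by the assay and genotype in their labels, out of 15 footprint libraries and 31 libraries in the whole series. The remaining 8 footprint libraries were 5 from mice lacking Fmr1 alone, labelled FXS, and 3 from mice lacking Rps6kb1 alone, labelled S6K1, and 16 mRNA libraries held 4 of each genotype. All mice were between postnatal days 29 and 34. The alleles, strain and sex of the mice, and whether the replicates were separate animals, are not given in the sources used here, so p-values measure only the spread between these samples. It is not stated either whether footprints and mRNA came from the same animals.

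Fmr1 encodes FMRP, an RNA-binding protein of neurons and other cells that is known for holding back the translation of many mRNAs, and whose loss causes fragile X syndrome. Rps6kb1 encodes S6K1, a kinase activated by mTORC1 that phosphorylates ribosomal protein S6 and translation factors. Ribosome profiling sequences the pieces of mRNA that ribosomes protect from nuclease, so a gene's footprint count follows both the amount of its mRNA and the number of ribosomes on it.

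Counts over coding sequences came to 23.8 to 34.1 M per DKO footprint library and 19.8 to 34.9 M per WT library. Values below are CPM, counts in each M of the library's total, after TMM scaling of library sizes. DKO replicates 1, 2 and 3 belonged to batches 1, 3 and 4 of the labels, and WT replicates 1, 2, 3 and 4 to batches 2, 3, 4 and 4. DKO replicate 1 and S6K1 replicate 1, the only libraries of batch 1, stood apart from the other 13 footprint libraries on the first principal component (35.4% of the variance). Batch 1 held no WT library, so DKO replicate 1 met WT only through the model of all 15 libraries. Differences within batches 3 and 4, which held both genotypes, are given beside the fitted ones where they are used.

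Footprints on both targeted genes fell in DKO. Fmr1, on chromosome X from 68678536 to 68717963 (GRCm38), stood at 12.8, 10.7 and 8.04 CPM in DKO replicates 1 to 3 and at 105, 118, 138 and 106 CPM in WT replicates 1 to 4. Rps6kb1, on chromosome 11 from 86498869 to 86544885, stood at 11.97, 11.7 and 11.3 CPM in DKO and at 31.7, 27.7, 30.04 and 26.1 CPM in WT. All 3 DKO libraries lay below all 4 WT libraries for both genes, and neither gene was at 0 in DKO. The log2 fold change was -3.69 ± 0.13 (SE) for Fmr1 (adjusted p = 3.07e-10, edgeR quasi-likelihood test with Benjamini-Hochberg adjustment) and -1.44 ± 0.13 for Rps6kb1 (adjusted p = 8.19e-05). The mRNA of both genes changed less, with log2 fold changes of -2.15 and -0.50 in the mRNA libraries. DKO footprints differed from FXS for Rps6kb1 (log2 fold change -1.63, adjusted p = 2.68e-05) and from S6K1 for Fmr1 (-3.68, adjusted p = 2.31e-10), as the labels say.

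**Figure D1:**
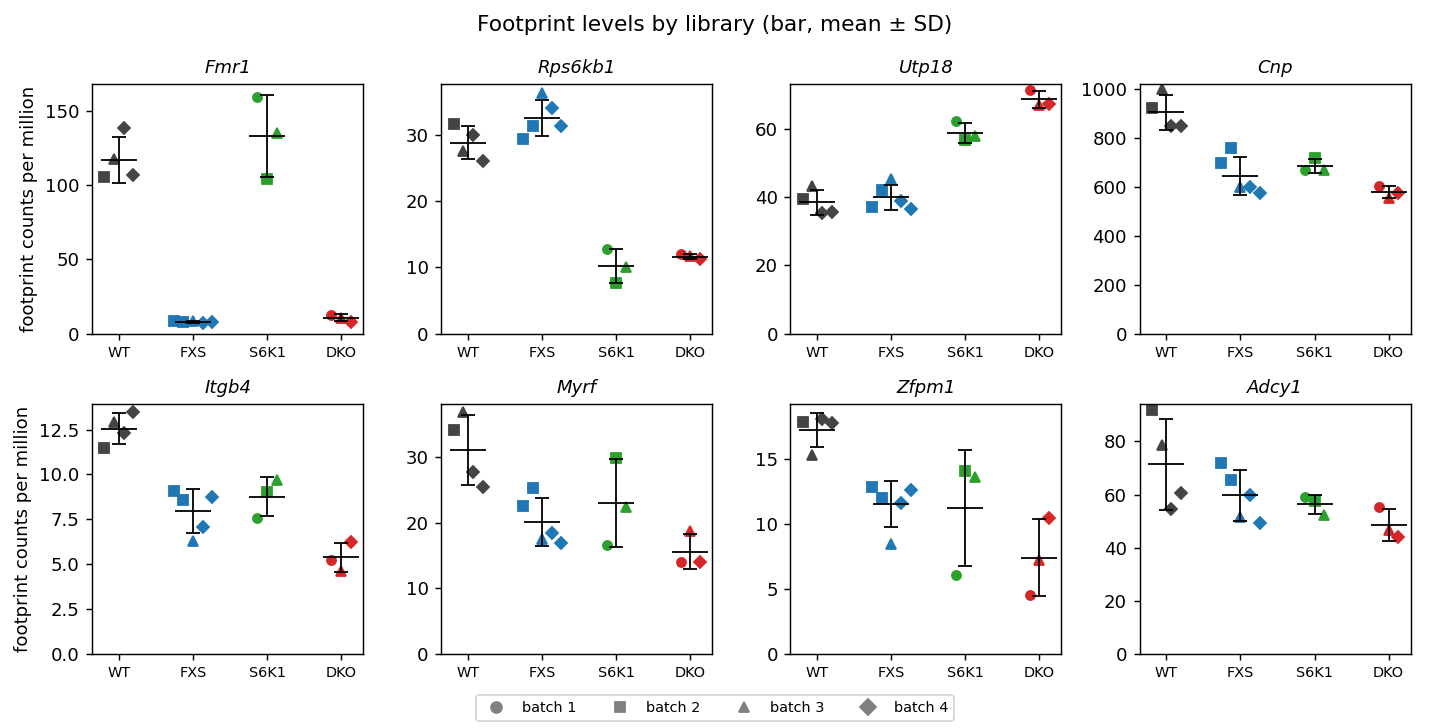
Footprint levels in CPM (vertical axis, linear, from 0) of 8 genes in the 15 footprint libraries by genotype, with marker shape for batch and bars for mean ± SD. DKO libraries lie below WT for Fmr1, Rps6kb1, Cnp, Itgb4, Myrf and Zfpm1 and above WT for Utp18, and the ranges of Adcy1 overlap (43.8 to 55.2 CPM in DKO, 54.5 to 91.7 CPM in WT).

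Few other genes were called by edgeR, and most of those were lower. Of 13953 genes tested, 51 passed an adjusted p of 0.05 (0.366%), with 4 higher (0.0287%) and 47 lower (0.337%) in DKO. At an unadjusted p under 0.05 there were 2381 genes (17.1%), 1047 higher (7.5%) and 1334 lower (9.56%). Without one of the 3 DKO libraries the fit called 8 genes (replicate 1 left out), 3 (replicate 2) or 2 (replicate 3), and without one of the 4 WT libraries it called 103, 14, 10 and 33 genes for replicates 1, 2, 3 and 4. Fmr1 and Rps6kb1 were called in all of these fits, and no other gene was. None of the 51 changed direction under any alternative tried. DESeq2 called 290 genes, 119 higher and 171 lower, and 50 of the 51 were among them.

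Of the 47 lower genes, 34 had every DKO library below every WT library, which held for 7.22% of all genes tested. All 47 were lower both within batch 3 and within batch 4, a pattern seen in 32.5% of all genes. Setting the targeted genes aside, the log2 fold changes of the other 45 ran from -1.65 to -0.35 with a median of -0.82. WT levels among the 47 ran from 1.02 to 1220 CPM, and 3 genes were under 2 CPM in WT (Exo1, Depdc1b and Abra, named after their values were seen).

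**Figure D2:**
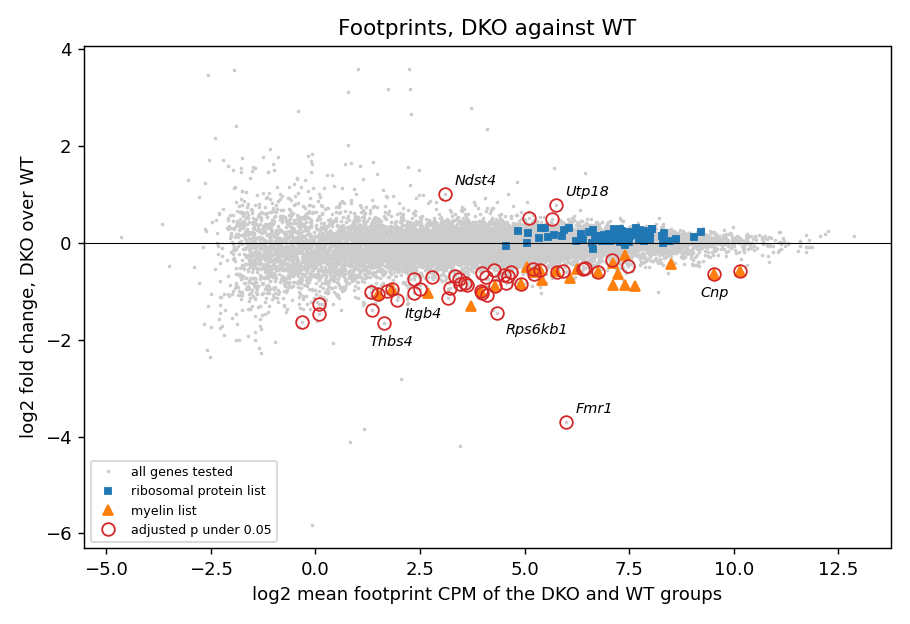
Log2 fold change of footprints, DKO over WT (vertical axis), against the log2 of mean footprint CPM over both groups (horizontal axis) for 13953 genes, with the 51 called genes circled. Myelin genes (triangles) all lie below 0, and ribosomal protein genes (squares) lie in a narrow band, 71 of 78 above 0.

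The 4 genes with more footprints in DKO were Utp18, Dok6, Snap29 and Ndst4. Utp18 encodes a nucleolar protein of the small-subunit processome, which matures 18S ribosomal RNA. Its footprints stood at 71.5, 67.2 and 67.5 CPM in DKO and at 39.5, 43.3, 35.4 and 35.8 CPM in WT. The DKO libraries were tightly grouped and all above WT, and the log2 fold change was 0.78 ± 0.08 (adjusted p = 0.000702). S6K1 libraries lay between, at 62.3, 56.7 and 58.0 CPM, and FXS libraries ran from 36.5 to 45.5 CPM with a median of 38.8. Utp18 was the one gene besides Rps6kb1 called against FXS (log2 fold change 0.72, adjusted p = 0.002), and its difference from S6K1 did not pass (0.25, adjusted p = 0.502). Its mRNA averaged 45.4 CPM ± 2.98 (SD, n = 4) in DKO and 43.5 ± 3.04 (n = 4) in WT, a log2 fold change of 0.07 (adjusted p = 0.70). Without DKO replicate 3 the adjusted p of Utp18 was 0.0595.

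Dok6, an adaptor of receptor tyrosine kinases, stood at 56.6, 62.6 and 59.7 CPM in DKO and at 39.7, 45.4, 42.2 and 37.3 CPM in WT, again without overlap (log2 fold change 0.49 ± 0.09, adjusted p = 0.0369). Snap29, a SNARE protein of membrane fusion, stood at 32.7, 39.1 and 46.0 CPM in DKO and at 24.6, 25.4, 35.3 and 33.3 CPM in WT. These ranges overlapped, and the log2 fold change was 0.51 ± 0.10 (adjusted p = 0.0378). Ndst4, an enzyme that sulfates heparan sulfate, stood at 15.3, 8.92 and 10.5 CPM in DKO and at 6.16, 3.73, 6.92 and 5.86 CPM in WT (log2 fold change 1.01 ± 0.20, adjusted p = 0.0393). All 3 DKO libraries were above WT for Ndst4, with S6K1 at 11.4 CPM ± 3.19 (SD, n = 3) and FXS at 9.47 ± 2.67 (n = 5). All 4 genes were higher both within batch 3 and within batch 4, as were 30.2% of all genes, and none of the 4 mRNAs was called. Each of Dok6 and Snap29 was lost in 6 of the 7 fits that left out a library, and Ndst4 in all 7.

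Oligodendrocytes wrap axons in myelin, and their genes made up 12 of the 47 lower genes. In a list of 24 genes for myelin proteins and enzymes of myelin lipids, 9 were called lower and 0 higher, against 0.337% of all genes called lower. The list was chosen with earlier results of these data known, so this count is a description. All 24 had a log2 fold change below 0, 23 had an unadjusted p under 0.05, and the median was -0.69, against -0.012 over all genes tested. The median of the list was -0.98 within batch 3 and -0.67 within batch 4. Between DKO and S6K1 replicate 1 in batch 1 it was -0.11. In bulk lysates, fewer cells of a type and less RNA per cell cannot be told apart within 1 assay. In the separate mRNA libraries the median log2 fold change was 0.022 for this list, with 10 of 24 genes below 0, and 0.047 for the list of other oligodendrocyte genes, with 11 of 29 below 0.

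Cnp, a phosphodiesterase of myelin, had the smallest p of these. Its footprints stood at 603, 554.5 and 575 CPM in DKO and at 922, 999.9, 849.6 and 849 CPM in WT. The groups were well apart, and the log2 fold change was -0.64 ± 0.08 (adjusted p = 0.00456). Plekhb1, a membrane protein with a lipid-binding domain, stood at 20.4, 33.8 and 38.1 CPM in DKO and at 45.8, 54.8, 58.1 and 48.9 CPM in WT (log2 fold change -0.56 ± 0.09, adjusted p = 0.019). Fa2h, which hydroxylates the fatty acids of myelin lipids, stood at 22.9, 20.5 and 21.1 CPM in DKO and at 33.6, 53.2, 32.3 and 36.4 CPM in WT (log2 fold change -0.85 ± 0.15, adjusted p = 0.031). Both had every DKO library below WT, with WT replicate 2 far above the other WT libraries for Fa2h. Opalin, a membrane glycoprotein of oligodendrocytes, stood at 21.9, 14.97 and 10.3 CPM in DKO and at 20.1, 32.9, 19.9 and 21.0 CPM in WT. DKO replicate 1 of batch 1 reached the WT range here, so the call for Opalin (log2 fold change -0.88 ± 0.16, adjusted p = 0.031) rests on the batch term. With no batch term 45 of the 51 calls were lost, among them Opalin, Plekhb1 and Fa2h (adjusted p = 0.25, 0.181 and 0.134), while Cnp was kept (0.0484). Of the 7 fits that left out a library, Plekhb1 was lost in 5, Fa2h and Opalin in 6, and Cnp in 2.

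Other called genes of the list, beyond the 4 of smallest p, were Gjb1, Pllp, Ugt8a and Gal3st1, the last 3 named after their values were seen. Gjb1 encodes connexin 32, a gap junction protein, and Pllp the membrane protein plasmolipin. Ugt8a and Gal3st1 encode the enzymes that make galactosylceramide and sulfatide. Ugt8a stood at 147.9, 100.2 and 57.2 CPM in DKO and ran from 82.3 to 167 CPM in WT, with a mean of 114.6 ± 36.8 (SD, n = 4). Its ranges overlapped as well, with DKO replicate 1 above 3 of the 4 WT libraries, and the log2 fold change was -0.60 ± 0.12 (adjusted p = 0.0378). Without the batch term its adjusted p was 0.763. Mbp and Mag, which encode myelin basic protein and a myelin adhesion receptor, did not pass by edgeR (log2 fold changes -0.44 and -0.90, adjusted p = 0.141 for both; both named after their values were seen).

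Genes that control or accompany the oligodendrocyte fate gave 3 lower calls among 29 tested, Itgb4, Myrf and Sept4, with a list median of -0.55, against 0.337% of all genes called lower. The count was 0 without DKO replicate 2 or 3 and 9 without WT replicate 1. It was 8 with DESeq2, 1 with no batch term and 0 with DKO and WT alone. Myrf, a transcription factor that switches on myelin genes, stood at 14.01, 18.7 and 14.1 CPM in DKO and at 34.2, 37.0, 27.8 and 25.5 CPM in WT. Itgb4, the integrin subunit that pairs with alpha 6 to bind laminin, stood at 5.24, 4.62 and 6.25 CPM in DKO and at 11.5, 12.9, 12.3 and 13.5 CPM in WT. Neither gene overlapped between groups, and the log2 fold changes were -0.84 ± 0.12 (adjusted p = 0.0132) and -1.14 ± 0.16 (adjusted p = 0.00809). Sept4, a septin, stood at 149, 149 and 147 CPM in DKO and between 193 and 224 CPM in WT (log2 fold change -0.49 ± 0.08, adjusted p = 0.0276). Aatk, a kinase of the same list, had a log2 fold change of -0.53 and an adjusted p of 0.0861 by edgeR and 0.00998 by DESeq2.

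The summed footprints of the myelin list came to 3751, 3135 and 2571 CPM in DKO and to 4111, 5656, 3859 and 3763 CPM in WT. The groups did not overlap, but DKO replicate 1 and WT replicate 4 differed by little, and WT replicate 2 was the highest. Summed mRNA of the list ran from 2711 to 4819 CPM in DKO (median 4238, n = 4) and from 2892 to 4704 CPM in WT (median 4226, n = 4). Fewer of the 24 genes were called lower without WT replicate 2 (1), WT replicate 3 (1), WT replicate 4 (2) or DKO replicate 1 (1), and 0 were without DKO replicate 2 or 3. Without WT replicate 1, 16 were called lower. The median log2 fold change of the list stayed between -0.829 and -0.608 over all alternatives, that without WT replicate 2 being -0.612.

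**Figure D3:**
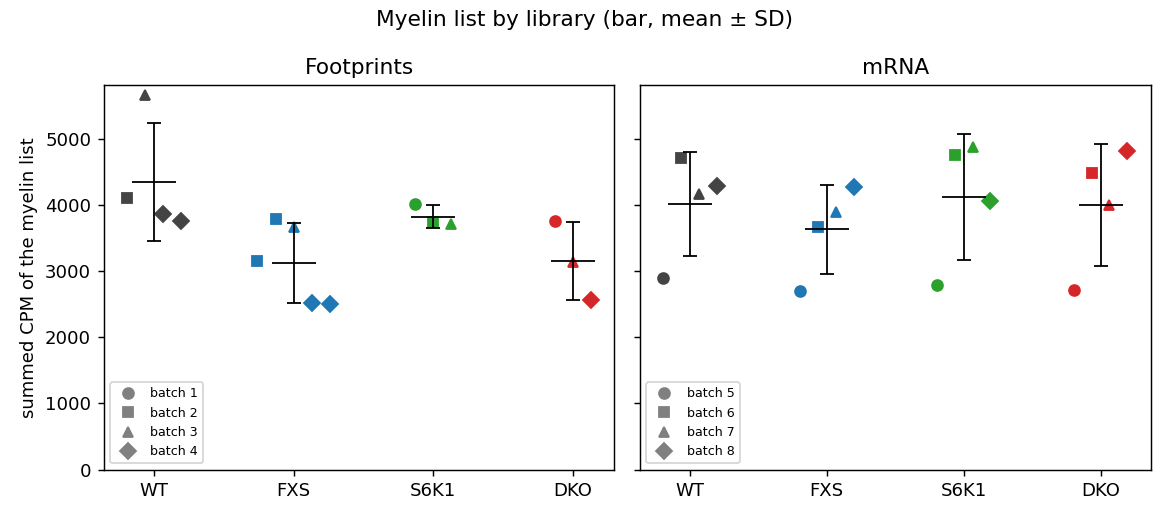
Summed CPM of the 24 myelin genes (vertical axis, linear, from 0) in footprint libraries (left) and mRNA libraries (right) by genotype, with marker shape for batch and bars for mean ± SD. DKO footprints lie below WT (2571 to 3751 against 3763 to 5656 CPM), while mRNA ranges overlap, with 1 low library of batch 5 in each genotype.

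The other genes among the 25 lower calls of smallest p fell into several roles. Gjc3, a connexin, Padi2, an enzyme that citrullinates proteins including myelin basic protein, and Ndrg1, whose loss causes a demyelinating neuropathy, had log2 fold changes of -0.93, -0.68 and -0.55. Regulators of the cytoskeleton and of small GTPases were Ppp1r14a (an inhibitor of myosin phosphatase, -1.04), Cdc42ep1 (an effector of Cdc42, -0.86), Plekhg3 (-0.82), Arhgef10 (-0.61) and the motor Myo1d (-0.66). Plekhg3 and Arhgef10 are exchange factors for small GTPases. Zfpm1, a cofactor of GATA transcription factors, stood at 4.52, 7.22 and 10.4 CPM in DKO and at 17.9, 15.3, 18.1 and 17.7 CPM in WT. Its groups were far apart, though the DKO values spread over a wide range, and the log2 fold change was -0.87 ± 0.12 (adjusted p = 0.0105). Tnrc6c, which joins Argonaute proteins in silencing by microRNAs, stood at 24.5, 27.9 and 32.2 CPM in DKO and at 44.8, 41.3, 47.2 and 49.9 CPM in WT (log2 fold change -0.55 ± 0.09, adjusted p = 0.0182). The rest were the phosphodiesterase Pde8a (-1.04), the ubiquitin ligase subunit Fbxo32 (-0.70), the interferon-induced GTPase Igtp (-1.01), the glycosyltransferase Galnt6 (-1.17) and the membrane protein Ttyh2 (-1.07). Adjusted p-values of these 15 genes ran from 0.0105 for Zfpm1 to 0.0369 for Igtp, Galnt6, Plekhg3 and Arhgef10.

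Among the 22 further lower calls was Adcy1, the leading gene of its list. Adcy1, a calcium-stimulated adenylyl cyclase of neurons, stood at 55.2, 46.6 and 43.8 CPM in DKO and at 91.7, 78.6, 54.5 and 60.6 CPM in WT. Its groups overlapped by one pair of libraries, DKO replicate 1 and WT replicate 3, and the call (log2 fold change -0.57 ± 0.12, adjusted p = 0.0472) was lost in all 7 fits that left out a library. All 9 adenylyl cyclases had a log2 fold change below 0, against 52% of all genes, with a median of -0.23. Adcy1 was the 1 called, against 0.337% of all genes called lower. The summed footprints of the list overlapped, at 250.6 to 303.1 CPM in DKO and 268.7 to 409.4 CPM in WT. In the cholesterol list Insig1, which restrains sterol synthesis, had a log2 fold change of -0.50 and an adjusted p of 0.132. Other lower calls were Bche, Tprn, Nfe2l3, Car4, Csrp1, Fam214a, Litaf, Thbs4, Heg1, Ovca2, Phldb1, Shroom1 and Qdpr, named after their values were seen.

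Of the 45 lower genes other than the targeted pair, the share called in mRNA was not below that of all genes. In mRNA 3 of the 45 were called, all lower, against 5.23% of 14215 genes in that comparison (2.06% lower). At an unadjusted p under 0.05 there were 10 of the 45, against 22.3% of all genes. Of the 45, 31 had an mRNA log2 fold change below 0, and the median was -0.12. Among all genes tested in both assays, 6833 of 13654 were below 0 in mRNA. The 3 genes called in mRNA were Igtp (-1.18), Pde8a (-0.47) and Fam214a (-0.37), all lower. Cnp mRNA averaged 364 CPM ± 27.6 (SD, n = 4) in DKO and 347 ± 29.3 (n = 4) in WT, and Myrf mRNA 30.8 ± 3.22 and 28.3 ± 2.37. In the myelin list 1 of 24 genes was called in mRNA, Aspa, an enzyme of acetylaspartate breakdown, which was lower and is named after its values were seen.

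Translational efficiency (TE), the footprint difference minus the mRNA difference tested in 1 model of all 31 libraries, was called for 27 of the 47 lower genes, against 4.85% of 13654 genes. Since these genes were chosen by their footprints, and TE holds the same footprints, the count is a description. Cnp had a log2 TE difference of -0.71 (adjusted p = 0.00327), Myrf -0.96 (0.00327) and Adcy1 -0.80 (0.00808). TE was called lower for 16 of 24 myelin genes, with a median of -0.71, and for 7 of 29 other oligodendrocyte genes, against 3% of all genes called lower. Among the higher genes, TE was called higher for Utp18 and Ndst4, against 1.85% of all genes.

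**Figure D4:**
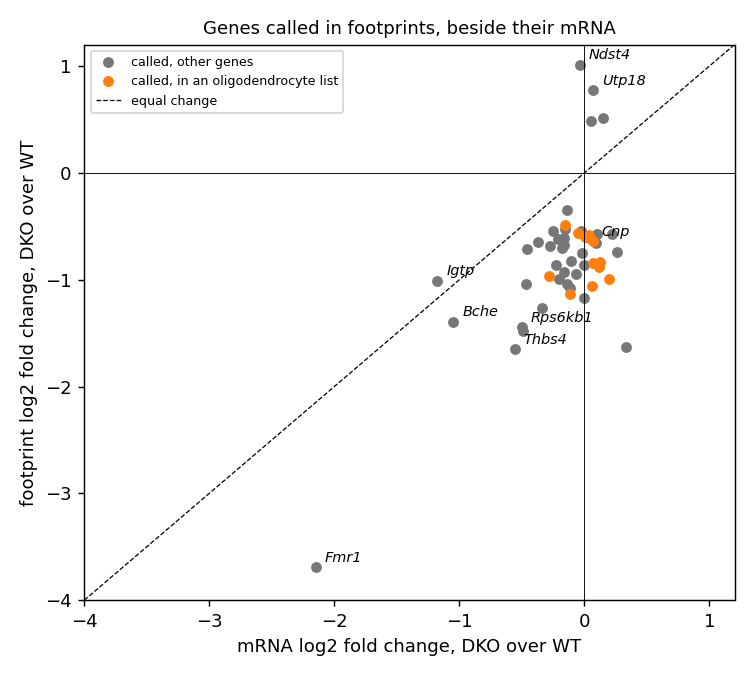
Footprint log2 fold change (vertical axis) against mRNA log2 fold change (horizontal axis), DKO over WT, for the 51 genes called in footprints, with genes of the oligodendrocyte lists in orange and a dashed line of equal change. The orange points lie near 0 on the mRNA axis and below 0 on the footprint axis. Fmr1, Igtp and Bche are the points below -1 on the mRNA axis.

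S6K1 and mTORC1 are known for acting on the translation machinery, whose mRNAs often open with a C followed by a run of pyrimidines, the 5′ terminal oligopyrimidine (TOP) tract. To show this feature, 30 bases around the RefSeq transcript start (GRCm38.p6) are printed for 4 ribosomal protein genes, 4 oligodendrocyte genes called lower, and Rps6kb1 and Utp18. The first 15 bases lie before the start and the last 15 from it on. Capitals mark the run that begins with C at the listed start and goes on with C or T, read on the gene's own strand. The 4 ribosomal protein genes were picked among those with a run of at least 5 bases. The other genes were picked without regard to a run, so the printed genes do not show how common a run is.
Rpl35: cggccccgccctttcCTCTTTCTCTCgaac
Rpl38: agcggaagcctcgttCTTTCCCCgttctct
Rps27: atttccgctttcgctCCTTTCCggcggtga
Rplp2: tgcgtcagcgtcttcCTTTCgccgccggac
Cnp: gcgcgccccgcccccaggctatgaaaggga
Opalin: ctccccatcgctcccagctggtgccctaca
Pllp: ccaagcagcgccagcagccggagccgcagt
Ugt8a: cggggcgcgcggggcCCggcggaggagcag
Rps6kb1: cgcatgcgccggagctgaacttgaggagcc
Utp18: ggcttgcggcggcgcagactccttccggct
A run of at least 5 such bases at the listed start was found for 14 of 58 ribosomal protein genes with an entry (24.1%), for 2 of 36 oligodendrocyte-list genes (5.56%) and for 314 of 10542 tested genes (2.98%). A match describes the letters at the listed start only.

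Footprints of most ribosomal protein genes had fold changes slightly above 0 in DKO, and none passed the edgeR test. Of 78 tested, 0 were called by edgeR in either direction, 24 had an unadjusted p under 0.05 and were higher, against 7.5% of all genes, and 71 had a log2 fold change above 0. The median was 0.14, with 0.19 within batch 3 and 0.15 within batch 4. Rpl36a, a protein of the large subunit, stood at 44.4, 49.7 and 54.4 CPM in DKO and at 36.5, 39.0, 41.2 and 41.8 CPM in WT. Its groups did not overlap (log2 fold change 0.31 ± 0.08, adjusted p = 0.11), and it was the 1 gene of the list called by DESeq2. In all, 21 of the 78 genes had every DKO library above every WT library, against 9.07% of all genes. Rpl5, Rpl11 and Rpl23a had log2 fold changes of 0.28, 0.25 and 0.29, with adjusted p from 0.149 to 0.163. The 14 genes with a run of at least 5 pyrimidines at the listed start had a median of 0.11, the 43 without one 0.16, and the 21 with no entry 0.13. The median mRNA log2 fold change of the list was -0.051. Many ribosomal protein genes have near-identical pseudogenes, and how the authors' counting split such reads is not given in the sources used here.

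Other parts of the translation machinery gave 1 call, Utp18. Of 41 translation factors, 0 were called by edgeR, 6 had an unadjusted p under 0.05, all higher, against 7.5% of all genes, and the median log2 fold change was 0.13. Pabpc1, the poly(A)-binding protein, stood at 154.5, 211 and 179 CPM in DKO and at 139, 129.9, 118 and 151 CPM in WT. The lowest DKO library was just above the highest WT library, and the log2 fold change was 0.46 ± 0.11 (adjusted p = 0.0767). DESeq2 called Pabpc1 and no other translation factor of the list. Eif4a1, the helicase of cap-dependent initiation, Etf1, the release factor, and Eef1a1, the elongation factor that delivers aminoacyl-tRNA, had log2 fold changes of 0.22, 0.25 and 0.23 with adjusted p from 0.243 to 0.252. Of 35 genes of ribosome assembly, Utp18 alone was called, and Utp6, Npm1 and Nop58 had log2 fold changes of 0.25, 0.25 and 0.22 (adjusted p from 0.166 to 0.232). Of 26 genes of the mTOR and S6K pathway, Rps6kb1 alone was called. Eif4ebp2, an inhibitor of cap binding, Rheb, the activator of mTORC1, and Gsk3b, a kinase downstream of insulin signalling, had log2 fold changes of 0.28, 0.27 and 0.14 (adjusted p from 0.242 to 0.289).

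Partners of FMRP and its target mRNAs gave few calls by edgeR. Of 11 genes for FMRP and its partners, edgeR called Fmr1 alone and DESeq2 called Fmr1 lower and Fxr1 higher. Of the 11, 6 had an unadjusted p under 0.05 and were higher, against 7.5% of all genes, and the list median was 0.21. Fxr1, the close relative of Fmr1, averaged 171 CPM ± 10.9 (SD, n = 3) in DKO and 125 ± 7.5 (n = 4) in WT, without overlap (log2 fold change 0.33 ± 0.09, adjusted p = 0.11 by edgeR and 0.0231 by DESeq2). Ago2 and G3bp1, an Argonaute protein and a stress granule protein, had log2 fold changes of 0.23 and 0.25 (adjusted p of 0.181 and 0.198). Of 101 mRNAs known as FMRP targets, 1 was called lower, Adcy1, and 0 higher, while DESeq2 called 5 lower (Adcy1, Itpr1, Aatk, Grin2a and Igsf9b). Of the 101, 23 had an unadjusted p under 0.05 and were lower, and 4 were higher, against 9.56% and 7.5% of all genes. The median was -0.11 for footprints and 0.12 for mRNA. Itpr1, the calcium channel of the endoplasmic reticulum, stood at 501, 494 and 412 CPM in DKO and at 698, 619, 560.0 and 584 CPM in WT. All DKO libraries were lower, with a log2 fold change of -0.47 ± 0.10 (adjusted p = 0.0572 by edgeR and 0.0035 by DESeq2). Igsf9b, an adhesion protein of inhibitory synapses, had a log2 fold change of -0.66 (adjusted p = 0.0749 by edgeR and 0.0118 by DESeq2).

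Genes of synapses and excitability gave no call by edgeR outside Adcy1, where 0.366% of all genes were called. Of 40 ion channel genes, 0 were called by edgeR or DESeq2, 16 had an unadjusted p under 0.05, all lower, against 9.56% of all genes, and the median log2 fold change was -0.17. Cacna1i, Cacna1a and Kcnh1, which encode calcium and potassium channels, had log2 fold changes of -0.36, -0.37 and -0.30 (adjusted p from 0.143 to 0.155). Of 32 genes for glutamate receptors and their scaffolds, 0 were called by edgeR, and DESeq2 called 1, Grin2a. At an unadjusted p under 0.05, 4 were lower and 1 higher, against 9.56% and 7.5% of all genes. Grin2a, an NMDA receptor subunit, stood at 157, 129 and 91.7 CPM in DKO and at 173, 179, 125.5 and 117 CPM in WT, with overlapping ranges (log2 fold change -0.40 ± 0.09, adjusted p = 0.0756). Grin2b, Shank1 and Homer2 had log2 fold changes of -0.23, -0.42 and 0.35 (adjusted p from 0.163 to 0.226). In the list of 42 chromatin regulators 0 were called by edgeR or DESeq2. At an unadjusted p under 0.05, 1 was lower and 2 were higher, against the same 9.56% and 7.5%. The leading genes were Chd2 (0.38), Chd9 (0.20), Arid1b (-0.25) and Smarca4 (-0.19), with adjusted p from 0.153 to 0.333. Of 29 integrin and laminin genes, Itgb4 alone was called. Plec and Itga3, which encode plectin and an integrin subunit, had log2 fold changes of -0.52 and -0.50 (adjusted p of 0.201 and 0.202), with a list median of -0.24. Of 16 genes of the stress response 0 were called by edgeR or DESeq2, and 1 was lower at an unadjusted p under 0.05, against 9.56% of all genes. Sesn2, Eif2ak3, Vldlr and Chac1 had adjusted p from 0.257 to 0.316.

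**Figure D5:**
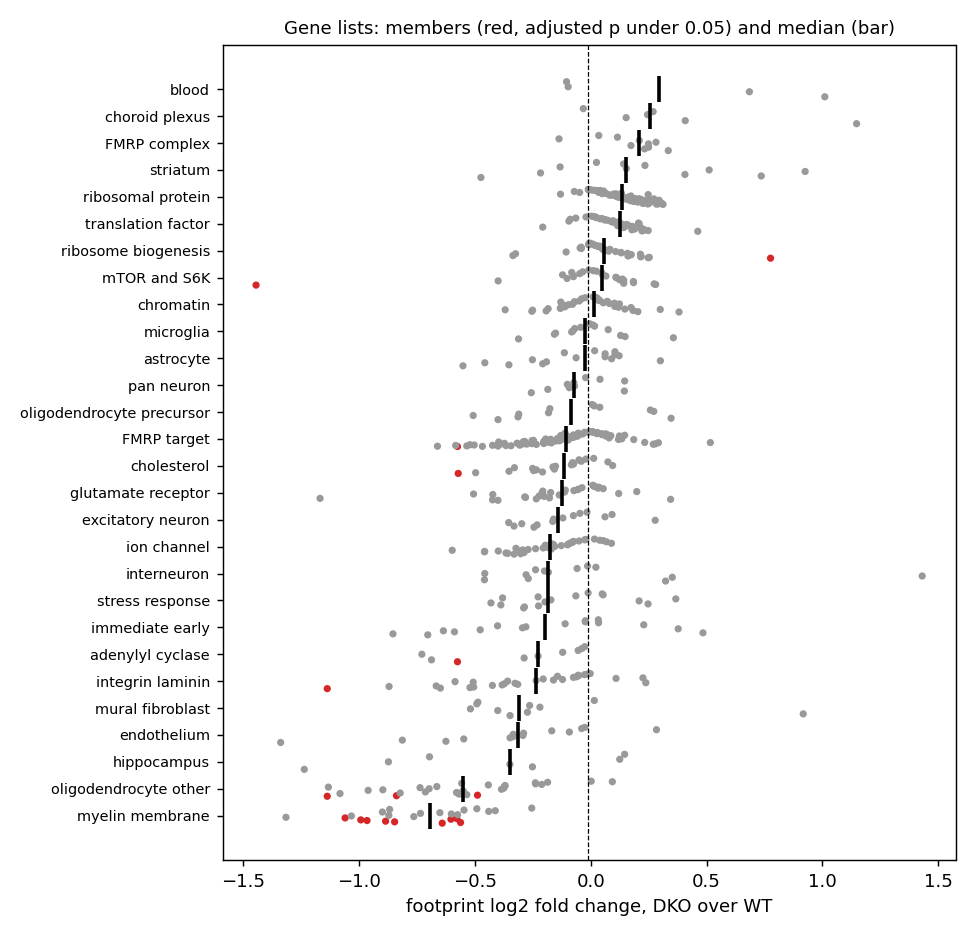
Footprint log2 fold change, DKO over WT (horizontal axis), of the genes of 28 lists (vertical axis), with red points for called genes, black bars for list medians and a dashed line at the median of all genes (-0.012). Fmr1 is left out of the points of its list. The myelin list (median -0.69) and the other oligodendrocyte list (-0.55) lie lowest.

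Markers of the labelled tissue were present. Lists of cell types other than oligodendrocytes gave no footprint calls, where edgeR called 0.366% of all genes. In lists this short, 0 calls is near that share. Snap25, a protein of synaptic vesicle fusion, averaged 3568 CPM ± 424 (SD, n = 3) in DKO and 3852 ± 307 (n = 4) in WT, and Slc17a7, the vesicular glutamate transporter of cortical excitatory neurons, 479 ± 85.9 and 597 ± 91.7. By edgeR, and by DESeq2 as well, 0 genes were called in the lists for oligodendrocyte precursors (12 genes tested), astrocytes (16), microglia (14), endothelium (14), mural cells and fibroblasts (10), choroid plexus (6), blood (4), striatum (11), hippocampus (7), excitatory neurons (14), interneurons (13), neurons in general (10) and immediate early genes (16). At an unadjusted p under 0.05 the lower and higher genes among them were 1 and 0 for precursors, 2 and 0 for astrocytes, 2 and 0 for endothelium, 1 and 0 for mural cells, 0 and 2 for blood, 1 and 0 for striatum, 2 and 0 for excitatory neurons, 2 and 3 for interneurons, 1 and 0 for neurons in general, and 0 in the other 4 lists, where 9.56% of all genes were lower and 7.5% higher at that p.

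Among the leading genes of these lists, Cldn5, a tight junction protein of endothelium, had a log2 fold change of -1.34 at 0.454 CPM in DKO and 1.10 CPM in WT (adjusted p = 0.0955). Sox9 and Gfap, a transcription factor and a filament protein of astrocytes, had log2 fold changes of -0.55 and -0.35 (adjusted p of 0.184 and 0.205). Gad1 and Gad2, which make GABA in interneurons, had log2 fold changes of 0.32 and 0.35, and Pvalb and Kcnc1, found in fast-spiking interneurons, -0.27 and -0.46 (adjusted p from 0.14 to 0.247). Hba-a2, a haemoglobin chain of red cells, had a log2 fold change of 1.01 (adjusted p = 0.139), and its reads may be shared with a near-identical copy. Tbr1, Rorb and Fezf2, transcription factors of cortical layers, had log2 fold changes of -0.23, -0.24 and -0.33 (adjusted p from 0.261 to 0.302). Olfm2 was the leading gene of the precursor list (-0.40, adjusted p = 0.23), Npas4 of the immediate early genes (-0.70, adjusted p = 0.363) and C1qc of the microglial list (-0.31, adjusted p = 0.54).

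Some of these sums differed between single libraries. The summed astrocyte markers ran from 2497 to 3692 CPM in DKO and from 2975 to 3613 CPM in WT, and WT replicate 2, the highest WT library for myelin, was also the highest WT library here. The summed precursor markers ran from 457 to 758 CPM in DKO and from 479 to 779 CPM in WT. The summed striatal markers, a sign of how the cortex was dissected, ran from 159.8 CPM in DKO replicate 1 to 348 CPM in DKO and from 203 CPM in WT replicate 2 to 875 CPM in WT replicate 1, with at most 1 of the list's genes at 0. Summed blood markers ran from 23.1 to 55.9 CPM in DKO footprints and from 17.6 to 36.5 CPM in WT footprints, and in mRNA from 668 to 991 CPM in the 4 DKO libraries against 1169 CPM or more in the 4 WT libraries, where the groups did not overlap and edgeR called 0 of 4 genes, with 1 lower at an unadjusted p under 0.05. Vascular markers had fold changes below 0 in most genes. For endothelium 13 of 14 genes had a footprint log2 fold change below 0, with a median of -0.31, and 13 of 14 had an mRNA log2 fold change below 0, with a median of -0.32, 6 lower at an unadjusted p under 0.05 (10.2% of all genes) and 1 called. For mural cells and fibroblasts 8 of 10 were below 0 in footprints (median -0.31) and 9 of 10 in mRNA (median -0.23). The summed footprints of both lists overlapped between groups, at 25.2 to 48.3 CPM in DKO and 26.4 to 43.5 CPM in WT for endothelium, and at 100.4 to 208 and 124 to 189.6 CPM for mural cells and fibroblasts. No gene of either list was at 0. The part of these lists in the lower myelin footprints was not tested. Without WT replicate 2 the median of the myelin list moved from -0.692 to -0.612, and without WT replicate 1 to -0.809.

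Set beside the single knockouts, the double knockout had few genes called by edgeR. Against FXS, 2 genes were called (0.0143%), Rps6kb1 and Utp18, and against S6K1, 1 gene (0.00717%), Fmr1. At an unadjusted p under 0.05 there were 864 genes against FXS (6.19%) and 1210 against S6K1 (8.67%). All comparisons share the DKO libraries, so each gene's own values are given side by side. For Cnp the mean of WT was 905 CPM ± 72.0 (SD, n = 4), followed by 685 ± 27.2 (n = 3) in S6K1, 645.5 ± 78.7 (n = 5) in FXS and 577 ± 24.4 (n = 3) in DKO. DKO did not pass against FXS (log2 fold change -0.12, SE 0.08, adjusted p = 0.807) or against S6K1 (-0.17, SE 0.08, adjusted p = 0.583). Itgb4 averaged 12.5 CPM in WT, 8.76 in S6K1, 7.95 in FXS and 5.37 in DKO, with a log2 fold change of -0.46 (SE 0.16) against FXS and -0.72 (SE 0.16) against S6K1 (adjusted p = 0.762 and 0.304). Myrf averaged 31.1 CPM in WT, 23.0 in S6K1, 20.1 in FXS and 15.6 in DKO, with adjusted p of 0.826 and 0.502 for DKO against FXS and S6K1. The means of these 3 genes stood in the same order, with DKO lowest and WT highest, and DKO did not pass a test against either single knockout for any of them. All 3 were picked as lower in DKO than in WT in these same libraries, so the ends of this order follow largely from the choice. Of the 45 lower genes other than the targeted pair, the FXS mean lay between DKO and WT for 43 and the S6K1 mean for 41. These 45 were picked in the same way, as lower in DKO than in WT, which by itself favours means in between. The share over all genes was not counted, so both counts are a description. Over the myelin list the median log2 fold change was -0.16 for DKO against FXS and -0.19 for DKO against S6K1, with 5 and 3 of 24 genes at an unadjusted p under 0.05, all lower. Over all genes the lower share at that p was 3.43% and 4.46%.

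The called genes were unevenly placed along the genome. Chromosome 11, which carries Rps6kb1, held 14 of the 51 called genes among 1126 tested (1.24%), and the other chromosomes held 37 among 12791 with a RefSeq position (0.289%). Of the 14, 13 were lower and 4 were in the oligodendrocyte lists (Cnp, Itgb4, Sept4 and Gal3st1). The others were Rps6kb1, Utp18, Tnrc6c, Ttyh2, Igtp, Myo1d, Car4, Ovca2, Shroom1 and Adcy1. Utp18 lies 7.31 Mb and 44 tested genes from Rps6kb1, and Cnp 14 Mb and 161 tested genes. Among the 10 tested genes on each side of Rps6kb1, 1 was called, Car4, a carbonic anhydrase, which was lower (log2 fold change -0.68 ± 0.13, adjusted p = 0.0378). Tubd1 and Rnft1, the nearest on either side and named after their values were seen, had log2 fold changes of 0.70 (adjusted p = 0.0759) and 0.55 (adjusted p = 0.114), and DESeq2 called Tubd1. Among the 20 neighbours of Fmr1, 0 were called by edgeR or DESeq2, and the median was 0.05. At an unadjusted p under 0.05, 3 were higher and 1 lower, against 7.5% and 9.56% of all genes. The background strain and any sequence carried along with the Rps6kb1 deletion are not given in the sources used here, and their part in these calls was not tested.

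The authors' deposited table of the same comparison lists 12083 genes, of which 298 pass an adjusted p of 0.05, 102 higher and 196 lower. Of the 51 genes called here, the authors' deposited table lists 48, and all 48 pass there with the same direction. Those not in it are Abra, Exo1 and Depdc1b, the genes under 2 CPM in WT.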

How the data were processed

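The 15 footprint and 16 mRNA libraries of mouse cortex were deposited as raw counts per gene symbol over coding sequences, 20436 symbols a table. Per the submitters' processing notes, cutadapt 2.0, Bowtie2, TopHat2, RSEM and mm10 were used, with no role or order given. The authors' deposited comparison table holds, per the file headers, a mean normalized count and a test statistic (both a score of no stated scale), each gene's log2 fold change, the standard error of that log2 value, and p-values before and after adjustment.

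Genes were tested with the edgeR 4.0.16 quasi-likelihood F-test (robust) in R 4.3.3, after filterByExpr on genotype and TMM scaling, with batch and genotype in the model. All 15 footprint libraries entered the footprint fit and all 16 mRNA libraries the mRNA fit, each with 4 genotypes sharing 1 estimate of the spread. TE used all 31 libraries with batch nested in assay. Adjusted p-values (Benjamini-Hochberg) cover all genes of a test, and a gene was called under 0.05. Within-batch differences are of log2(CPM + 0.5). Groups came from the genotype labels, and replicates were numbered in accession order. No pair of DKO or of WT footprint libraries agreed within sampling noise (chi-square per degree of freedom from 17.1 to 111). DKO and WT footprint libraries held 19.8 to 34.9 M counts, so 1 CPM stood for at least 19.8 counts.

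Named were both targeted genes, all called higher, the 25 called lower of smallest p, the 4 of smallest p of each of 28 lists, and the calls against FXS and S6K1. Some genes this rule names are not reported here. The members and the lists were chosen with earlier results of these data known. RefSeq positions (GRCm38.p6, the mm10 assembly) matched 13917 of 13953 tested genes by symbol. Alternatives were RLE scaling, no filter, DESeq2 1.42.0, limma voom 3.58.1, no batch term, DKO and WT alone, batches 3 and 4 alone, and each DKO or WT library left out. The other deposited comparison tables and the deposited batch lists were not used here.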

Additional observations from a re-analysis of the deposited data

Results flagged for a closer look

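Of 138 groups of 4 libraries (WT footprints, WT mRNA or DKO mRNA) checked for a single library far from the others, 15 were marked, where chance marks 6.9. The groups share libraries and genes, so they are not independent, and the 3 DKO footprint libraries were not checked. No explanation was tested for any of the marked groups. WT footprint replicate 2 was marked in 5. It was low for Zfpm1 (15.3 CPM, others 17.7 to 18.1) and high for Ttyh2 (35.6 CPM, others 18.2 to 20.2) and Opalin (32.9 CPM, others 19.9 to 21.0). It was also high for the summed oligodendrocyte list without myelin genes (1694 CPM, others 1293 to 1348) and for the summed astrocyte list (3613 CPM, others 2975 to 3023). Without this library Zfpm1 and Ttyh2 were still called lower in DKO (adjusted p = 0.032 and 0.0322), and Opalin was not (adjusted p = 0.116).

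WT footprint replicate 4 was high for choroid plexus markers (42.9 CPM, others 17.5 to 20.3) and immediate early genes (4958 CPM, others 2078 to 2524). WT footprint replicate 1 was high for FMRP target mRNAs (51690.0 CPM, others 36430.0 to 38510.0) and stress response genes (1364 CPM, others 1163 to 1184).

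In mRNA, libraries of batch 5 were low. WT replicate 1 was low for oligodendrocyte precursor markers (815 CPM, others 1295 to 1339) and interneuron markers (1270.0 CPM, others 1753 to 1849). DKO replicate 1 was low for precursor markers (762 CPM, others 1384 to 1512), microglial markers (276 CPM, others 822.5 to 873), ion channels (3704 CPM, others 4744 to 4818) and the integrin and laminin list (424 CPM, others 586 to 603).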

How the results depend on the processing

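The count of 51 called genes depended on the model and on single libraries. It was 50 with RLE scaling, 60 with no filter on low counts, 46 with limma voom and 49 with robust voom, the last chosen after seeing the data. It was 290 with DESeq2 (119 higher, 171 lower), 6 with no batch term (1 higher, 5 lower), 4 with DKO and WT libraries alone (1 higher, 3 lower) and 31 with batches 3 and 4 alone (4 higher, 27 lower). Leaving out 1 library gave 2 to 103 genes. The 51 genes kept their direction in every one of these fits. With DKO and WT alone, 2 of the 51 were still called, and with batches 3 and 4 alone, 15. The cause of these shifts was not tested, and the last pair of fits also held fewer libraries. The counts over lists were added after seeing the data. Myelin genes called lower numbered 17 with DESeq2, 1 with no batch term, 0 with DKO and WT alone and 10 with batches 3 and 4 alone. The ribosomal protein median stayed between 0.088 and 0.195.

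DESeq2 called 6 genes against FXS (edgeR 2), 21 against S6K1 (edgeR 1), 1085 in mRNA (edgeR 743) and 1169 in TE (edgeR 662). With no batch term 2 were called against FXS, 1 against S6K1, 2 in mRNA and 2 in TE.

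Genes that changed sign were all uncalled by edgeR. With no batch term these were Rorb (0.01), Cyp51 (0.18), Rgs5 (0.2), Pecam1 (0.14), Drd2 (-0.72), Pde10a (-0.54) and Clic6 (-0.4). Without DKO replicate 2 these were Aqp1 (-0.46), Drd2 (-0.18), Aif1 (-0.02), Kcnj13 (-0.03), Clic6 (-0.81) and Hbb-bs (0.09), and without DKO replicate 3 Gpr6 (0.01). Without WT replicate 1 Kcnj13 (0.00), without WT replicate 2 Clic6 (-0.07) and Hbb-bs (0.28), and without WT replicate 4 Hbb-bs (0.1) and Hbb-bt (0.31) changed sign. So did Hbb-bs with voom (0.27, robust or not) and Hbb-bt with batches 3 and 4 alone (0.01). With 1 library left out, the other ends of the ranges were 1.36 for Drd2, 0.29 for Aif1, 0.36 for Kcnj13, 0.78 for Clic6, -0.62 for Hbb-bs and -0.36 for Hbb-bt.

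No paired analysis was possible because the labels carry no replicate numbers, and batch stood in the model instead. Batch 1 held no WT library and batch 2 no DKO library, so 1 DKO and 1 WT library met the other group through FXS and S6K1 libraries only. With 19.8 to 34.9 M counts a library, low genes such as Exo1 (1.02 CPM in WT) rest on few counts.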
